A study of Mus musculus with 8 samples.

Results

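The genes described here are 10 transcription factor genes of the immediate early class, namely the Fos genes Fos, Fosb and Fosl2, the Jun genes Jun, Junb and Jund, the Egr genes Egr1, Egr2 and Egr3, and Atf3. They were taken by symbol from the larger of the 2 deposited tables, which has 31574 rows, and the 10 were chosen with their values in these libraries already known, so their values are a description and carry no test. All 10 were among the 18051 rows that had at least 2 libraries above the table's lowest value and that entered the fits. The study compared RNA from c-kit+ cells of a mouse acute myeloid leukaemia in C57BL/6 bone marrow, with 8 libraries in 4 groups of 2. All sample titles begin with Moz, which the labels do not explain. The first group was Ezh1+/+ and received corn oil, and the second was Ezh1+/+ and received tamoxifen, and is labelled Ezh2-/-. The third was Ezh1-/- with corn oil, and the fourth was Ezh1-/- with tamoxifen and is labelled as lacking both genes. The oil groups are labelled Ezh2+/+ in the sample descriptions, while the design text gives floxed Ezh2 alleles that were not deleted. Tamoxifen was given at 10 mg/kg per day in corn oil for 5 doses, and cells were taken 7 days after treatment in all groups. Ezh1 and Ezh2 are the alternative catalytic subunits of Polycomb repressive complex 2, which methylates lysine 27 of histone H3.

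The labels do not name the Cre driver, and nothing in them says that the 2 libraries of a group came from separate mice, so the spread between replicates may be technical. Tamoxifen exposure and Ezh2 deletion go together in every comparison and cannot be told apart. The Ezh1+/+ and Ezh1-/- leukaemias may also be separate leukaemias, and that difference cannot be told apart from the Ezh1 genotype. The deposited values are log2 values centred on each gene's own median over the 8 libraries, so a value of 0 is that median, a value of 1 is 2 times it on the linear scale, and levels cannot be compared between genes. In what follows, Ezh1-present and Ezh1-null name the genotypes, and a gene is called higher or lower where limma, a linear model fitted to all rows, gave a Benjamini-Hochberg adjusted p under 0.05, whereas a difference given without that word is only a difference of means.

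Immediate early genes are transcribed within minutes of a growth factor, cytokine or stress signal, without the need for new protein. Serum response factor with its ternary complex partners and CREB, both acted on by kinases of the MAP kinase pathways, switch many of them on, and their messages are short-lived. Fos and Jun proteins pair through leucine zippers to form AP-1, Egr proteins are zinc finger factors that bind GC-rich sites, and in the myeloid lineage Egr1, Egr2 and Jun are known for their part in monocyte and macrophage differentiation.

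Promoter sequence is shown for the 4 members in which a searched motif was found, because the families are known to bind one another's promoters. RefSeq windows on GRCm38.p6, a patch release of the assembly that mm10 names, were available for 8 of the 10 genes, not for Egr1 and Egr3, and the 250 bases before the start site were searched on both strands. The motifs were the CArG box bound by serum response factor, the cAMP response element TGACGTCA, the Jun-type element TGACATCA, the AP-1 element TGANTCA and the Egr element GCGNGGGCG. Each sequence runs 5′ to 3′ on the gene's own strand, with the motif in capitals. The windows are chr7:19310046-19310295 on the minus strand for Fosb, chr5:32136222-32136471 on the plus strand for Fosl2, chr4:95052223-95052472 on the minus strand for Jun, and chr10:67537619-67537868 on the plus strand for Egr2.
Fosb: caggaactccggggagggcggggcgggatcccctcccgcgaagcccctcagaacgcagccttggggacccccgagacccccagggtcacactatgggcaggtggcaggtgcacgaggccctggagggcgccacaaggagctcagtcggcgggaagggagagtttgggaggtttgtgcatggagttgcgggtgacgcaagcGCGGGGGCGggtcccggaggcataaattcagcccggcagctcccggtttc
Fosl2: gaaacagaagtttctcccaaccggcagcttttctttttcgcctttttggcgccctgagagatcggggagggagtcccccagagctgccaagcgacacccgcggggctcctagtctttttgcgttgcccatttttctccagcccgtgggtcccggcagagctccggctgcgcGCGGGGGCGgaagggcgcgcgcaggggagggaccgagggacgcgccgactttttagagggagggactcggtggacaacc
Jun: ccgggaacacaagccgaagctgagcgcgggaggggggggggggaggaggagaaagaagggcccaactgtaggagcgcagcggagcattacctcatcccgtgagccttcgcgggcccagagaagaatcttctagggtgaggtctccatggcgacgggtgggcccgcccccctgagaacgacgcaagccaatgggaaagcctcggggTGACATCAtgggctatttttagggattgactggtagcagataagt
Egr2: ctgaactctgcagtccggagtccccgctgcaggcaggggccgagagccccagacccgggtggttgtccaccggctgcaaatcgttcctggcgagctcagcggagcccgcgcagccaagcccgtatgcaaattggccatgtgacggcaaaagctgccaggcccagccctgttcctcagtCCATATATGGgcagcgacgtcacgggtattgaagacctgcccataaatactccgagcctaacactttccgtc
Fosb and Fosl2 each held an Egr element, ending 42 and 71 bases before the start, and 4.7% of the 32851 mouse promoter windows searched held one. Jun held the Jun-type element 45 to 38 bases before its start, a motif present in 2.93% of windows. Egr2 held a CArG box 72 to 63 bases before its start, against 1.47% of windows. The cAMP response element and the AP-1 element, present in 1.55% and 6.75% of all windows, were in none of the 8, and the windows of Fos, Junb, Jund and Atf3 held none of the 5 motifs, which says only that these letters are not in these windows.

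Library checks were as follows. Ezh1, the targeted gene, was lower without Ezh1 in oil by a log2 difference of -3.53 ± 0.10 (SE; limma, adjusted p = 0.00108) and after tamoxifen by -3.17 ± 0.10 (limma, adjusted p = 0.000793). Ezh2, the tamoxifen target, differed by -0.18 ± 0.08 in Ezh1-present cells (limma, adjusted p = 0.293) and by -0.47 ± 0.08 in Ezh1-null cells (limma, adjusted p = 0.0554), in a gene-level value that does not resolve the floxed exons. Ezh2 was also lower without Ezh1 in oil, by -0.31 ± 0.08 (limma, adjusted p = 0.0492). After tamoxifen the genotype difference was -0.60 ± 0.08 (limma, adjusted p = 0.02). Both genotype calls were lost with only the groups compared in the fit (limma, adjusted p = 0.0942 and 0.0894). Kit, the receptor used to define the cells, was above the lowest value in all libraries and was higher in Ezh1-null cells by 1.26 ± 0.17 in oil (limma, adjusted p = 0.00848). The medians of the 15517 tested rows with all 8 libraries above the lowest value lay between -0.00253 and 0.00308 in the 8 libraries. Marker lists of other cell types also differed between the leukaemias. In oil, 24.9% of all tested rows were called without Ezh1, 12.5% higher and 12.4% lower. Of 8 B cell markers, 6 were called higher without Ezh1 in oil, and the list's median ran from -2.39 to -1.31 in the 4 Ezh1-present libraries and from 1.15 to 3.62 in the 4 Ezh1-null ones, with Ms4a1 and Pax5 at the lowest value in some libraries. Of 7 mast cell and basophil markers 5 were called higher, with medians from -4.39 to -0.37 and from 0.37 to 2.24 and with Fcer1a at the lowest value in some libraries. Of 10 neutrophil markers 6 were called higher, and of 14 monocyte and macrophage markers 4 were called higher and 7 lower. The 4 were Ly6c2 at 2.13 ± 0.11, Ccr2 at 1.14 ± 0.11, Cx3cr1 at 1.65 ± 0.29 and Lyz2 at 1.44 ± 0.34. Csf1r was among the 7 called lower, at -1.32 ± 0.18 (limma, adjusted p = 0.00874). Centring removes the levels, so summed marker levels cannot be given, and the part of these cell types in the values below was not tested.

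Of the 6 Fos and Jun genes, 5 had a shared layout, in which all 4 Ezh1-null libraries lay above all 4 Ezh1-present ones. Among all tested rows, the Ezh1-null pair lay wholly above in 31.0% in oil and in 30.7% after tamoxifen. The share of rows with all 4 above all 4 was not counted, so nothing is read from the count of 5. Fos, the prototype AP-1 partner of Jun (chr12:85473901-85477270, mm10), stood at -0.98 and -0.90 in Ezh1-present oil, -0.57 and -0.83 in Ezh1-present tamoxifen, 0.57 and 0.65 in Ezh1-null oil, and 1.71 and 1.93 in Ezh1-null tamoxifen. The 4 groups did not overlap, and both Ezh1-null tamoxifen libraries were the highest of the 8. In oil the Ezh1-null mean was 2.93-fold the Ezh1-present mean, a log2 difference of 1.55 ± 0.14 (SE, n = 2 per group), and after tamoxifen it was 5.76-fold, at 2.53 ± 0.14. With bulk RNA, a smaller number of cells carrying a message and less message per cell cannot be told apart.

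Fosb, a second Fos protein that is made mainly after strong or repeated stimulation (chr7:19302696-19310045), had the same order between genotypes but not between treatments. Its values were -0.79 and -0.36 in Ezh1-present oil, -1.11 and -1.29 in Ezh1-present tamoxifen, 0.36 and 0.70 in Ezh1-null oil, and 1.84 and 1.34 in Ezh1-null tamoxifen. The lowest pair was thus the Ezh1-present tamoxifen pair, where Fos had its lowest pair in oil. The genotype difference was 1.10 ± 0.25 in oil, or 2.15-fold, and 2.79 ± 0.25 after tamoxifen, or 6.92-fold.

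Fosl2, whose product Fra-2 lacks the strong transactivation domain of Fos and is known as a longer-lived AP-1 subunit (chr5:32136472-32157839), covered a smaller range. Its values were -0.64 and -0.69, then -0.29 and -0.21, then 0.38 and 0.21, and last 0.72 and 0.63, in the order Ezh1-present oil, Ezh1-present tamoxifen, Ezh1-null oil and Ezh1-null tamoxifen. Each step in that order was upward and no neighbouring groups overlapped. Replicates were closest for this gene, with a pooled within-group SD of 0.07, at the 13th percentile of all tested rows, and the genotype difference was 0.96 ± 0.10 in oil and 0.92 ± 0.10 after tamoxifen.

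Jun, the founding Jun protein, which drives its own promoter through the Jun-type element shown above (chr4:95049036-95052222), stood at -0.98 and -0.80 in Ezh1-present oil, -0.41 and -0.68 in Ezh1-present tamoxifen, 0.62 and 0.41 in Ezh1-null oil, and 0.92 and 0.68 in Ezh1-null tamoxifen. Its groups followed the same order as those of Fosl2 without overlap. The genotype difference was 1.41 ± 0.16 in oil, or 2.65-fold, and 1.35 ± 0.16 after tamoxifen, or 2.54-fold.

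Junb, a Jun protein known to restrain Jun and to limit myeloid proliferation (chr8:84974484-84978748), was highest in Ezh1-null oil, not after tamoxifen. It stood at -0.77 and -0.48 in Ezh1-present oil, -0.35 and -0.14 in Ezh1-present tamoxifen, 0.80 and 0.54 in Ezh1-null oil, and 0.32 and 0.14 in Ezh1-null tamoxifen. The oil groups were therefore the outer pairs and the tamoxifen groups the inner ones, with no overlap. The genotype difference was 1.30 ± 0.16 in oil and 0.48 ± 0.16 after tamoxifen.

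Jund, the Jun protein that most cells make steadily (chr8:70697739-70700616), differed little between groups. Its values were 0.08 and 0.03 in Ezh1-present oil, -0.06 and -0.03 in Ezh1-present tamoxifen, 0.54 and 0.02 in Ezh1-null oil, and -0.02 and -0.41 in Ezh1-null tamoxifen. The Ezh1-null oil pair overlapped the Ezh1-present oil pair, and the tamoxifen pairs overlapped each other. The genotype difference in oil, 0.23 ± 0.22, became -0.03 without Ezh1-null oil replicate 1, and that after tamoxifen, -0.17 ± 0.22, became 0.02 without Ezh1-null tamoxifen replicate 2.

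**Figure D1:**
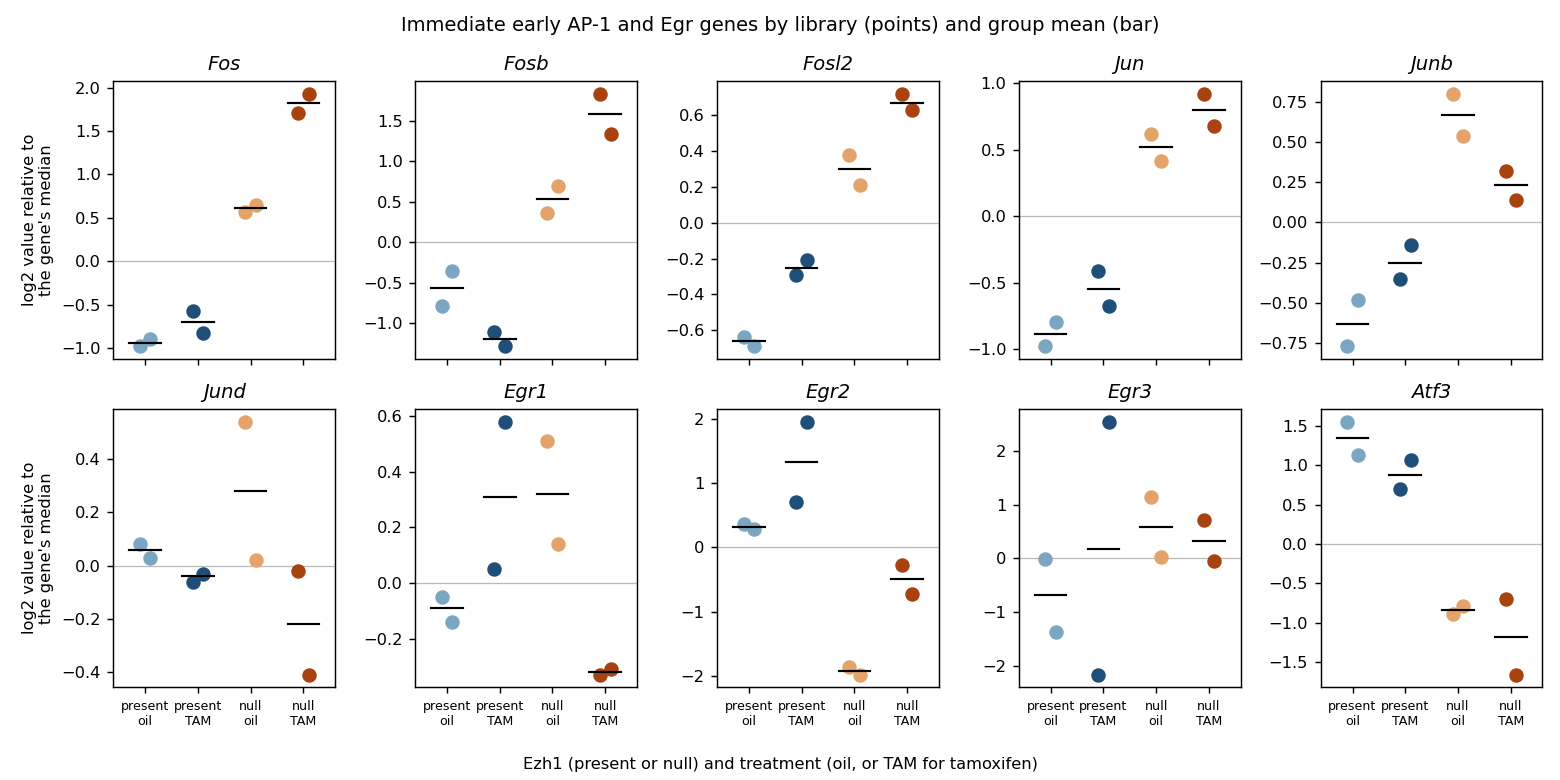
Deposited log2 value, centred on each gene's median of the 8 libraries (vertical axis, scaled separately for each gene) in the 4 groups (horizontal axis), with 1 point per library and a bar at the mean of 2. In Fos, Fosb, Fosl2, Jun and Junb all 4 Ezh1-null points lie above all 4 Ezh1-present points, in Egr2 and Atf3 they lie below, and in Egr3 the Ezh1-present tamoxifen points lie at -2.17 and 2.54.

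Egr2 and Atf3 were arranged the opposite way, with every Ezh1-null library below every Ezh1-present one. The Ezh1-null pair lay wholly below in 34.7% of all tested rows in oil and in 31.8% after tamoxifen, and the share with all libraries below was not counted. Egr2, which directs macrophage differentiation and, in other tissues, myelination (chr10:67537869-67542188), stood at 0.36 and 0.28 in Ezh1-present oil, 0.70 and 1.95 in Ezh1-present tamoxifen, -1.86 and -1.98 in Ezh1-null oil, and -0.28 and -0.73 in Ezh1-null tamoxifen. The 4 groups did not overlap, and within each genotype the tamoxifen pair lay above the oil pair. The difference of Ezh1-null minus Ezh1-present means was -2.24 ± 0.42 in oil, a 4.72-fold gap, and -1.83 ± 0.42 after tamoxifen, a 3.56-fold gap. The tamoxifen value was -2.45 without Ezh1-present tamoxifen replicate 1 and -1.21 without replicate 2.

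Atf3, a stress-induced ATF factor that pairs with Jun proteins and represses many inflammatory genes (chr1:191170297-191218039), stood at 1.55 and 1.13 in Ezh1-present oil, 0.70 and 1.07 in Ezh1-present tamoxifen, -0.89 and -0.79 in Ezh1-null oil, and -0.70 and -1.66 in Ezh1-null tamoxifen. The Ezh1-null pairs overlapped each other and lay below both Ezh1-present pairs. The Ezh1-null mean was lower by 4.53-fold in oil, at -2.18 ± 0.35, and the log2 difference after tamoxifen was -2.07 ± 0.35.

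Egr1, the Egr factor most widely induced by growth signals and a known driver of macrophage fate, had a range of 0.90 over the 8 libraries, the smallest of the 10 genes. It stood at -0.05 and -0.14 in Ezh1-present oil, 0.05 and 0.58 in Ezh1-present tamoxifen, 0.51 and 0.14 in Ezh1-null oil, and -0.33 and -0.31 in Ezh1-null tamoxifen. The Ezh1-null oil and Ezh1-present tamoxifen pairs, the higher ones, overlapped each other, and the Ezh1-null tamoxifen pair was the lowest. The genotype difference was 0.42 ± 0.22 in oil and -0.63 ± 0.22 after tamoxifen, the latter running from -0.37 to -0.89 as Ezh1-present tamoxifen replicate 2 or 1 was left out.

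Egr3, an Egr factor best known in lymphocytes (chr14:70077445-70082614), gave no usable order. It stood at -0.02 and -1.37 in Ezh1-present oil, -2.17 and 2.54 in Ezh1-present tamoxifen, 1.14 and 0.02 in Ezh1-null oil, and 0.72 and -0.05 in Ezh1-null tamoxifen. The Ezh1-present tamoxifen replicates were the lowest and the highest of all 8, and every pair of neighbouring groups overlapped. Its pooled within-group SD of 1.80 was at the 99th percentile of all tested rows, against a median of 0.19 for all rows and 0.23 for the 10 genes.

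The read depth behind the low members could be read from the table, because low rows fell on steps. Where a library's linear values are whole multiples of a constant, that constant was taken as what 1 read is worth. The commonest smallest value in a library was assumed to be a pair of reads, so a reading may stand for fewer fragments. The constant was between 0.746 and 1.24 times the table's lowest value in the 8 libraries, with 65.3% to 72.8% of low values within 0.01 of a whole multiple. Only 3 of the 10 genes gave a smallest reading in which at least 6 of 8 libraries were whole within 0.02 reads, although the true number could be a multiple of it. Egr2 read as 26 and 25 reads in Ezh1-present oil, as 4 and 4 in Ezh1-null oil, and as 14 and 10 in Ezh1-null tamoxifen. In Ezh1-present tamoxifen its readings were 39.4, which is not whole, and 69. On this reading, the Ezh1-null oil mean of Egr2 rests on few reads per library.

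Egr3 read as 5 and 2 reads in Ezh1-present oil, 8 and 4 in Ezh1-null oil, and 7 and 4 in Ezh1-null tamoxifen. Its Ezh1-present tamoxifen replicate 2 read as 26, while replicate 1 lay at the table's lowest value, which stands for 0 or 1 read there. No fold against that library is given, and the Egr3 means that include it depend on where the table set its lowest value. Atf3 read as 12 and 14 in Ezh1-null oil and 16 and 8 in Ezh1-null tamoxifen, against 69 in the second Ezh1-present oil replicate and 60 in the first Ezh1-present tamoxifen replicate. The other 7 members gave no reading up to the 300 reads searched.

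**Figure D2:**
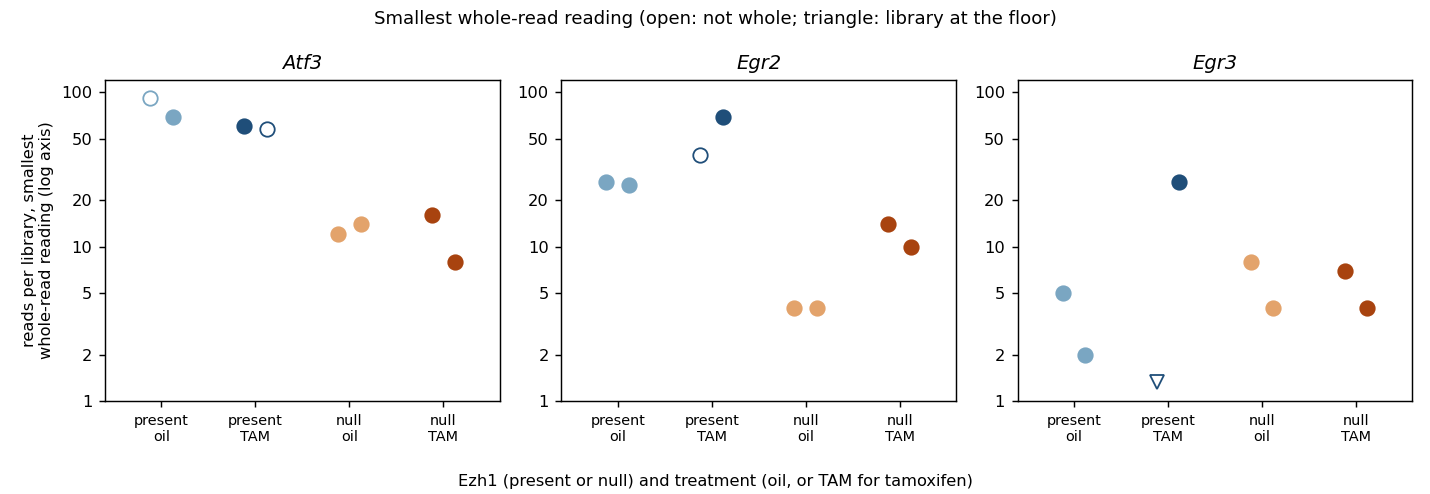
Smallest whole-read reading per library (vertical axis, reads, log axis) for Atf3, Egr2 and Egr3 in the 4 groups (horizontal axis), with filled points for whole readings, open circles for readings that are not whole, and a triangle for the library at the table's lowest value. Egr2 lies at 4 reads in both Ezh1-null oil libraries against 25 and 26 in Ezh1-present oil, and Egr3 lies at or below 8 reads in 7 of 8 libraries.

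Between the oil groups, 7 of the 10 genes were called, 5 higher in Ezh1-null cells (Fos, Fosb, Fosl2, Jun and Junb) and 2 lower (Egr2 and Atf3), where 24.9% of all tested rows were called, 12.5% higher and 12.4% lower. Because the 10 were chosen on these values, nothing is read from that count. It was 4 without Ezh1-present oil replicate 1, without Ezh1-null oil replicate 1 or without Ezh1-null oil replicate 2. Groups did not overlap in 9 of the 10 genes, with 7 wholly above and 2 wholly below, against 65.8% of all rows, 31.0% above and 34.7% below. The median difference of the 10 was 1.03, with -0.04 over all tested rows.

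After tamoxifen, 5 of the 10 were called, with Fos, Fosb, Fosl2 and Jun higher in Ezh1-null cells and Atf3 lower, where 12.2% of all rows were called, 6.77% higher and 5.44% lower, and nothing is read from this count either. It was 3 without Ezh1-present tamoxifen replicate 2 or Ezh1-null tamoxifen replicate 1, 2 without Ezh1-null tamoxifen replicate 2, and 0 when the oil libraries were left out of the fit. The groups did not overlap in 8 of the 10, with 5 wholly above and 3 wholly below, against 62.5% of rows, 30.7% above and 31.8% below, and the median difference was 0.31.

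**Figure D3:**
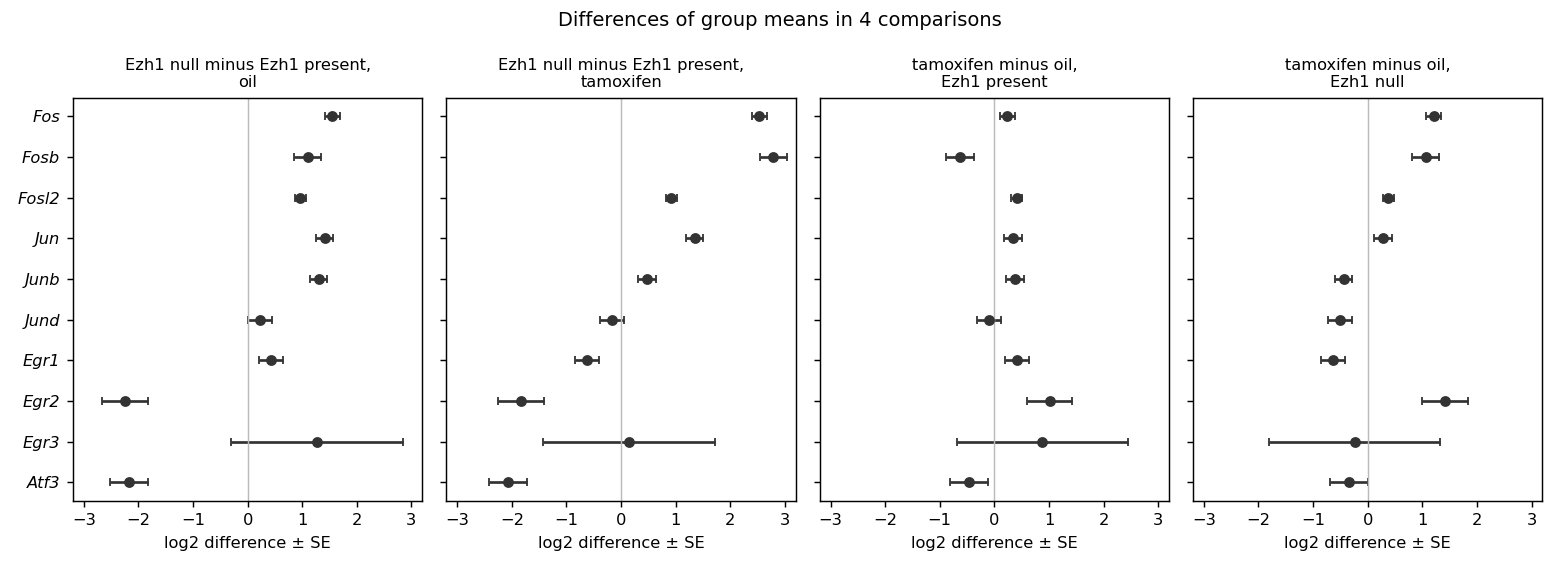
Difference of group means (horizontal axis, log2, with bars of 1 SE from the fit over all rows, n = 2 libraries per group) for the 10 genes (vertical axis) in 4 comparisons, which share groups with one another. Fos and Fosb lie at 1.55 and 1.10 in oil and at 2.53 and 2.79 after tamoxifen for Ezh1-null minus Ezh1-present cells, and the SE of Egr3, 1.57, spans 0 in all 4 panels.

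For tamoxifen and Ezh2 deletion in Ezh1-present cells, the differences of tamoxifen minus oil were smaller in size than those between genotypes in oil for each of the Fos and Jun genes. Fosl2 differed by 0.41 ± 0.10, Junb by 0.38 ± 0.16 and Fosb by -0.63 ± 0.25, the last becoming -1.145 once the libraries were quantile normalized. Fos and Jun differed by 0.24 ± 0.14 and 0.34 ± 0.16, but both had the opposite sign, -0.22 and -0.03, under that normalization, and Fos was at 0.11 without Ezh1-present tamoxifen replicate 1.

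Among the other members in Ezh1-present cells, Egr2 differed by 1.01 ± 0.42, which became 1.63 without tamoxifen replicate 1 and 0.385 without tamoxifen replicate 2. Egr1 differed by 0.41 ± 0.22, which became 0.67 and 0.14 in the same way, and Atf3 by -0.46 ± 0.35, or -0.695 after quantile normalization. For both Egr genes the size differed with which tamoxifen library was kept. None of the 10 was called by limma, where 0.903% of all rows were called and 3713 rows had an unadjusted p under 0.05. Since the 10 were chosen on these values, nothing is read from this count. The groups did not overlap in 9 of the 10, with 6 wholly above and 3 wholly below, against 53.8% of rows, 28.5% above and 25.3% below, and the median difference was 0.36.

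Markers of other cell types differed in the same comparison. With tamoxifen in Ezh1-present cells, 11 of 11 measured T and NK cell markers had a difference above 0, with a median of 3.15. Among them 2 were called, where 0.903% of all rows were. All 8 measured erythroid markers (median 3.58) and all 10 neutrophil markers (median 2.23) were also above 0. Ezh1-present tamoxifen replicate 2, the library with the highest Egr1, Egr2 and Egr3, had list medians of 2.07 for erythroid, 2.32 for T and NK and -0.18 for neutrophil markers, against -0.44, 0.89 and -1.87 in replicate 1. Cd3e and Gzma were at the lowest value in some libraries. The part of these cells in the tamoxifen differences was not tested.

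In Ezh1-null cells, the difference of tamoxifen minus oil was 1.21 ± 0.14 for Fos, or 2.32-fold, 1.06 ± 0.25 for Fosb, or 2.09-fold, and 1.42 ± 0.42 for Egr2, or 2.67-fold from the few reads above. Under quantile normalization these 3 differences were 0.88, 0.77 and 0.66. The Jun genes differed in sign, with Jun at 0.28 ± 0.16 (0.01 after quantile normalization), Junb at -0.44 ± 0.16 (-0.67 likewise) and Jund at -0.50 ± 0.22. Jund was at -0.24 without Ezh1-null oil replicate 1 and at -0.76 without replicate 2.

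Egr1 in Ezh1-null cells had a difference of -0.64 ± 0.22 between tamoxifen and oil. Atf3 differed by -0.34 ± 0.35, which was 0.14 with Ezh1-null tamoxifen replicate 2 left out and -0.83 with replicate 1 left out, and -1.04 after quantile normalization. Fos alone was called, 1 of 10, where 3.4% of all rows were called, 3.1% higher and 0.299% lower. Nothing is read from this count. That count was 0 after quantile normalization, without a filter on low values, with Ezh1-present libraries left out of the fit, or without any 1 of the 4 Ezh1-null libraries, and 2 without either Ezh1-present tamoxifen library. The groups did not overlap in 8 of the 10, with 5 wholly above and 3 wholly below, against 49.2% of rows, 24.5% above and 24.8% below, and the median difference was 0.02.

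The authors' deposited table lists the same tamoxifen differences, 0.24 and 1.21 for Fos and -0.63 and 1.06 for Fosb, for Ezh1-present and Ezh1-null cells in turn. The smaller deposited table, which holds 4576 rows with a difference of at least 2-fold, includes Fos, Fosb and Egr2 and none of the other 7.

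The comparisons above share groups with one another, so their values are given side by side only. The difference between the 2 tamoxifen differences was 1.69 ± 0.35 for Fosb and 0.97 ± 0.19 for Fos, with Ezh1-null cells the higher. It was -1.05 ± 0.30 for Egr1 and -0.82 ± 0.23 for Junb, with Ezh1-null cells the lower. For Fosl2 it was -0.04 ± 0.14 and for Jun -0.06 ± 0.22, so the SE was larger than the value in both. None of the 10 was called by limma, where 0.476% of all rows were called and 2697 had an unadjusted p under 0.05. Here too nothing is read from the count.

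Likeness between members was measured as the root mean square of the difference between centred log2 values over the 8 libraries, so a smaller value means a closer match. Fosl2 and Jun were the closest to each other, at 0.25, and Junb was closest to Fosl2, at 0.305. Fos and Fosb were closest to each other, at 0.395. Jund was closest to Egr1, at 0.259, both with small ranges. Egr2 was closest to Atf3 at 0.89, and Egr3 stood 1.22 from its nearest member, Egr1.

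Outside the set, 15507 genes with all 8 libraries above the lowest value were compared with the mean profile of the 10 members. The lowest value was found from ties between at least 2 libraries, so a gene with a single library there, as Egr3 has, still counts as above it. The closest were Flt3l at 0.0715, Kctd6 at 0.111, Adcy4 at 0.127, Scaper at 0.128, Disc1 at 0.136, Fam65b at 0.137, Arl2bp at 0.144 and Plau at 0.147. That mean averages genes of opposite direction and includes the scattered Egr3, and it ran only from -0.35 to 0.49. Against the mean of Fos, Fosb, Fosl2, Jun and Junb, a subset picked after their values were seen, the closest were Chst13 at 0.111, Fam20c at 0.125, Glis3 at 0.126 and Pcnx at 0.167. The mean of those 5 was -0.83 and -0.65 in Ezh1-present oil, -0.55 and -0.63 in Ezh1-present tamoxifen, 0.55 and 0.50 in Ezh1-null oil, and 1.10 and 0.95 in Ezh1-null tamoxifen.

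Signals that induce Fos and Jun are known to induce other early genes, of which 35 were measured. In oil, 8 were called higher and 6 lower in Ezh1-null cells, where 24.9% of all rows were called, and their median difference was 0.03. Leaving out 1 library at a time gave 1 to 7 called higher and 2 to 7 lower, and each of the 4 oil libraries moved both counts by over 1.5 times. The list as a whole was thus split in direction, with differences from -3.23 to 2.32.

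Klf4, a zinc finger factor that promotes monocyte differentiation, was at -1.45 and -1.69 in Ezh1-present oil and at 0.95 and 0.55 in Ezh1-null oil. It rose by 2.32 ± 0.20 in Ezh1-null cells (limma, adjusted p = 0.00342), and by 1.83 ± 0.20 between the tamoxifen groups (limma, adjusted p = 0.0125). The tamoxifen call was lost without Ezh1-present tamoxifen replicate 1 or either Ezh1-null tamoxifen library, at adjusted p up to 0.0635 by limma. The oil call was kept without each library in turn.

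Plk2, a polo-like kinase that is induced early by growth signals, was at -0.10 and -0.23 in Ezh1-present oil, 0.38 and 0.51 in Ezh1-present tamoxifen, -1.65 and -1.65 in Ezh1-null oil, and 0.10 and 0.52 in Ezh1-null tamoxifen. In oil it was lower in Ezh1-null cells by -1.49 ± 0.16 (limma, adjusted p = 0.00525), and it rose with tamoxifen in those cells by 1.97 ± 0.16 (limma, adjusted p = 0.00849). Both calls were kept without each library in turn, and the second was lost with only the groups compared in the fit (limma, adjusted p = 0.0857). Plk2 was the only one of the 35 called with tamoxifen in Ezh1-null cells, where 3.4% of all rows were called.

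Sik1, a salt-inducible kinase made in response to cAMP signals, was at 0.95 and 0.80 in Ezh1-present oil and at -0.36 and -0.50 in Ezh1-null oil. It was lower in the latter by -1.30 ± 0.13 (limma, adjusted p = 0.0042), a call kept without each library in turn. Between the tamoxifen groups the difference was -0.77 ± 0.13 (limma, adjusted p = 0.0273). That call was lost without either Ezh1-present oil library or any of the 4 tamoxifen libraries, at adjusted p up to 0.103 by limma.

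In Ezh1-present cells, where 0.903% of all rows were called with tamoxifen, the single call among the 35 was Ier3, an early survival gene. Its difference was -0.77 ± 0.10 (limma, adjusted p = 0.0476). Ier3 was at 0.13 and 0.20 in oil and at -0.66 and -0.55 after tamoxifen. The call was lost whichever of the 8 libraries was left out, with adjusted p from 0.0792 to 0.176 by limma.

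Of 14 other AP-1 and ATF genes, 1 was called higher and 3 lower without Ezh1 in oil, against 12.5% and 12.4% of all rows, and the list's median was -0.14. Atf7, which had the list's smallest p there, was at 0.61 and 0.63 in Ezh1-present oil and at -0.02 and -0.29 in Ezh1-null oil. Its difference was -0.78 ± 0.13 (limma, adjusted p = 0.0138). It was -0.79 and -0.77 without Ezh1-present oil replicate 1 and 2 in turn, and -0.64 without Ezh1-null oil replicate 2. The call was lost in each of these fits. Jdp2, which pairs with Jun proteins and represses AP-1 sites, was at -0.54 and -0.23 in Ezh1-present oil and at 0.80 and 1.15 in Ezh1-null oil, a difference of 1.36 ± 0.25 (limma, adjusted p = 0.0185). The call was lost without either Ezh1-present oil library or without Ezh1-null oil replicate 2, at adjusted p up to 0.0919 by limma.

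Batf2, a zipper protein of activated macrophages that is known to be induced by interferon, was called with tamoxifen in Ezh1-null cells. It was the only call of the 14, where 3.4% of all rows were called. It was at 0.06 and -0.18 in Ezh1-null oil and at 1.26 and 0.97 in Ezh1-null tamoxifen, a difference of 1.17 ± 0.16 (limma, adjusted p = 0.032). The call was lost whichever of the 8 libraries was left out, with adjusted p from 0.0567 to 0.128 by limma.

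Nab2, a corepressor that binds Egr proteins, was the only call in oil among Egr4, Nab1, Nab2 and Wt1, beside 24.9% of all rows. It was at 0.20 and 0.06 in Ezh1-present oil and at -0.76 and -0.86 in Ezh1-null oil, so lower by -0.94 ± 0.20 (limma, adjusted p = 0.0261). Without any 1 of the 4 oil libraries the call was lost, at adjusted p up to 0.116 by limma.

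Among 10 regulators of the serum response factor, ternary complex and CREB type, none was called higher and 3 were called lower without Ezh1 in oil, where 24.9% of all rows were called, and the median was -0.10. Srf itself was at 0.64 and 0.58 in Ezh1-present oil and at 0.03 and -0.07 in Ezh1-null oil, a difference of -0.63 ± 0.13 (limma, adjusted p = 0.027). The call was lost without any 1 of the 4 oil libraries or either Ezh1-null tamoxifen library, at adjusted p up to 0.116 by limma. Of 19 measured MAP kinase cascade genes, 2 were called higher and 1 lower in oil, again beside 24.9% of all rows. The list's median was 0.09. None was called with tamoxifen in either genotype, beside 0.903% of all rows with Ezh1 present and 3.4% without it.

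MAP kinase feedback inhibitors, are induced by the signal that they then dampen. Of 16, 4 were called higher and 1 lower without Ezh1 in oil, where 12.5% and 12.4% of all rows were, and the list's median was -0.40. Leaving out 1 library at a time gave 0 to 3 called higher and 0 to 2 lower, and each of the oil and the Ezh1-null tamoxifen libraries moved the first count by over 1.5 times.

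Errfi1, with the list's smallest p in oil, was lower without Ezh1 there by -0.96 ± 0.15 (limma, adjusted p = 0.0129). After tamoxifen it differed by -0.79 ± 0.15 (limma, adjusted p = 0.0362). Spred2 was higher in oil by 1.82 ± 0.35 (limma, adjusted p = 0.0208). Errfi1 lost its oil call without either Ezh1-present oil library or Ezh1-null oil replicate 2, and its tamoxifen call whichever library was left out. Spred2 lost its call without any 1 of the 4 oil libraries. Dusp1, a nuclear phosphatase of MAP kinases and itself an immediate early gene, was at -0.66 and -0.34 in Ezh1-present oil, -0.57 and -0.25 in Ezh1-present tamoxifen, 0.29 and 0.25 in Ezh1-null oil, and 0.71 and 0.49 in Ezh1-null tamoxifen. It was called higher without Ezh1 in oil, at 0.77 ± 0.17 (limma, adjusted p = 0.0304), and after tamoxifen, at 1.01 ± 0.17 (limma, adjusted p = 0.0284). The oil call was lost without any 1 of the 4 oil libraries or either Ezh1-null tamoxifen library, at adjusted p up to 0.123 by limma. The tamoxifen call was lost without any 1 of the 4 tamoxifen libraries or either Ezh1-null oil library, at adjusted p up to 0.121 by limma.

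Genes known as AP-1 targets came next. Of 14 measured, 1 was called higher and 3 lower without Ezh1 in oil, where 24.9% of all rows were called, and the list's median was -0.04. After tamoxifen 0 were called higher and 3 lower, where 12.2% of all rows were called, and the median was -0.16. Over all tested rows the medians were -0.04 and -0.00227. In each comparison, 6 of the 14 had a difference above 0. Mmp9 was among them, at 2.80 ± 0.76 in oil (limma, adjusted p = 0.0522) and 3.13 ± 0.76 after tamoxifen (limma, adjusted p = 0.0582), and was not called. Mt1 was the 1 called higher in oil, at 0.73 ± 0.15 (limma, adjusted p = 0.0264). The call was lost without any 1 of the 4 oil libraries or either Ezh1-null tamoxifen library. Hmox1 was called lower in oil, at -0.78 ± 0.14 (limma, adjusted p = 0.0184). It was also called lower after tamoxifen, at -0.95 ± 0.14 (limma, adjusted p = 0.0221). Each call of Hmox1 was lost without any 1 of the 4 libraries compared.

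Mmp13, a collagenase whose promoter is a classic AP-1 target, was called lower in both Ezh1-null groups. It was at 0.78 and 0.90 in Ezh1-present oil, 2.13 and 2.77 in Ezh1-present tamoxifen, -3.91 and -2.71 in Ezh1-null oil, and -0.82 and -0.78 in Ezh1-null tamoxifen. The genotype difference was -4.15 ± 0.43 in oil (limma, adjusted p = 0.00473), a call kept without each library in turn, and -3.25 ± 0.43 after tamoxifen (limma, adjusted p = 0.0177). The tamoxifen call was lost whichever of the 4 tamoxifen libraries was left out, with adjusted p up to 0.0826 by limma.

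Ccnd1, cyclin D1, was the only one of the 14 called with tamoxifen in Ezh1-null cells, where 3.4% of all rows were called. It was at -0.36 and -0.39 in oil and at 1.51 and 1.80 after tamoxifen, a difference of 2.02 ± 0.27 (limma, adjusted p = 0.0284). The call was lost without any 1 of the 4 Ezh1-null libraries or either Ezh1-present oil library, at adjusted p up to 0.135 by limma.

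Some of these list calls also depended on the fit. Without the filter on low values the calls of Jdp2, Nab2, Srf, Dusp1, Spred2, Batf2, Ccnd1, Ier3 and Mt1 were lost. So were those of Sik1 and Errfi1 after tamoxifen. With only the groups compared in the fit, the calls of Jdp2, Atf7, Dusp1, Batf2, Ccnd1 and Ier3 were lost. The same held for those of Klf4, Sik1, Errfi1, Hmox1 and Mmp13 after tamoxifen. Quantile normalization ended the calls of Nab2 (limma, adjusted p = 0.0644) and, in oil, of Hmox1 (limma, adjusted p = 0.0603).

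**Figure D4:**
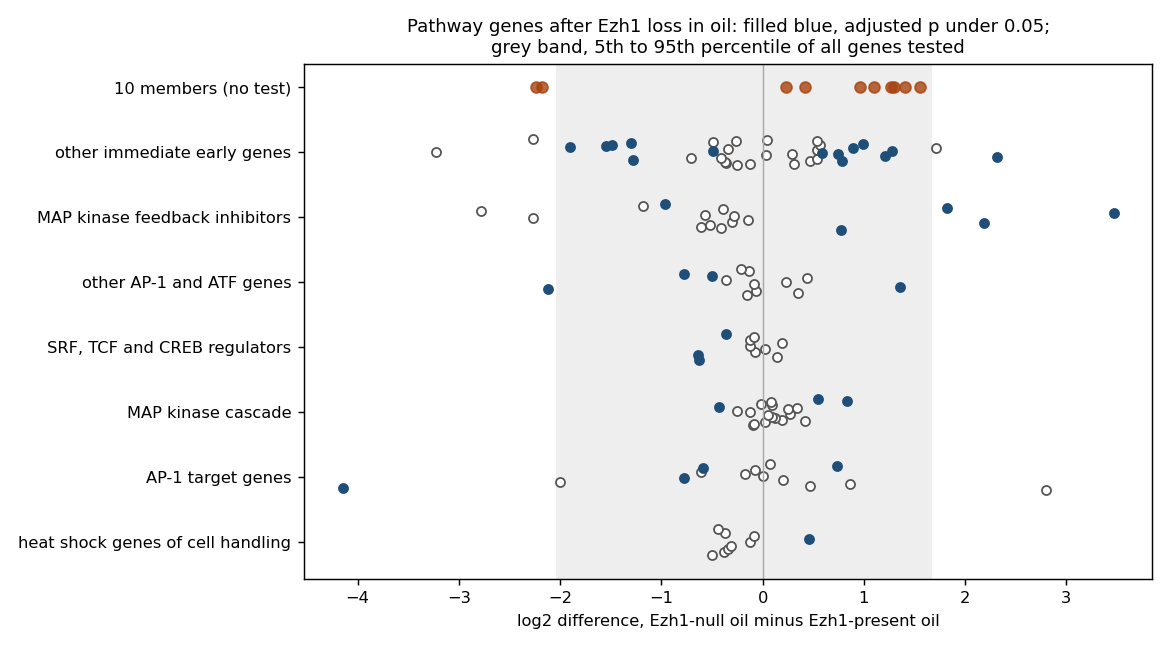
Log2 difference of Ezh1-null oil minus Ezh1-present oil (horizontal axis) for the 10 genes, shown without a test, and for 7 lists of related genes (vertical axis), with 1 point per gene, filled blue where limma called it, over a grey band from the 5th to the 95th percentile of all tested rows. The 10 genes lie from -2.24 to 1.55 with 8 of them above 0, while the called genes of the other lists lie on both sides of 0.

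Immediate early genes are also induced while tissue is dissociated and cells are sorted, along with heat shock genes. Of 9 heat shock genes, 1 was called higher and none lower without Ezh1 in oil, where 24.9% of all rows were called. The list's median there was -0.34. None was called with tamoxifen in Ezh1-present or Ezh1-null cells, or between the tamoxifen groups, where 0.903%, 3.4% and 12.2% of all rows were. The list's median lay between -0.23 and 0.44 in the 8 libraries. With tamoxifen in Ezh1-null cells, 5 of the 9 had a difference above 0, and the list's median was 0.01. Hspa1a and Hspa1b had the largest of these, at 1.70 ± 0.49 and 1.63 ± 0.41. Hspa1a was at -0.53 and -1.16 in Ezh1-null oil and at 1.08 and 0.64 in Ezh1-null tamoxifen. Hspa1b was at -0.30 and -1.01, then at 1.17 and 0.77, in the same groups. In both genes the latter pair was the highest of the 8 libraries. The part of cell handling in the values of Fos and Jun was not tested.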

How the data were processed

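RNA of 8 libraries was sequenced after TruSeq preparation, per the labels' protocols. The build is mm10, per the submitters' processing notes; aligner, counter and scaling: not given in the sources used here. The authors deposited log2 values centred on each gene's median, and log2 differences for tamoxifen, per the file headers, which also name a filter from the 20th to the 100th percentile. The largest absolute row median was 9.55e-07. Total counts per library are not in these values, so depth was read only from low rows. The 10 members and all gene lists were chosen with earlier results of these data known.

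A row was tested if at least 2 libraries exceeded the lowest value. One model over 4 groups was fitted with limma 3.58.1 (R 4.3.3), with 4 residual and 1.24 prior degrees of freedom, and tested on simulated data. Tables were made with Python 3.11.15 and pandas 2.3.3, and figures with matplotlib 3.10.9. The smallest exact two-sided permutation p for 2 against 2 is 0.333. Named were all 10 members, Ezh1, Ezh2 and Kit, and the 8 genes closest to the members' mean. Some, not all, of the up to 3 called genes with the smallest p per list and comparison were also named. Csf1r, Ly6c2, Ccr2, Cx3cr1, Lyz2, Mmp9, Hspa1a, Hspa1b and the second likeness profile were added after values were seen. Alternatives were a replicate block, a variance trend, quantile and median scaling, other filters, fits of only the groups compared and leaving out each library, where the lone library left is assumed to vary like the other groups.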

Additional observations from a re-analysis of the deposited data

Results flagged for a closer look

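The tamoxifen differences of 3 members had opposite signs in the leukaemias with and without Ezh1, with both tamoxifen libraries on one side of both oil libraries in each. Fosb was at -0.63 with Ezh1 present and at 1.06 without it on the log2 scale. Junb was at 0.38 and -0.44, and Egr1 at 0.41 and -0.64, in the same order. Among all tested rows, the tamoxifen and oil libraries did not overlap in 53.8% with Ezh1 present and in 49.2% without it. The share of rows that did so with opposite signs was not counted, so nothing is read from the count of 3. For the difference between the tamoxifen differences, limma called none of the 10 genes, where 0.476% of all rows were called. Because the genes were chosen with these values in view, nothing is read from that either.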

How the results depend on the processing

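Of the counts of called genes, 163 for tamoxifen with Ezh1 present, 614 for tamoxifen without Ezh1, 4493 for genotype in oil, 2204 for genotype after tamoxifen and 86 for the interaction, the following alternatives moved some by over 1.5 times, and the cause was not tested. Without a filter on low values they were 46, 215, 1187 and 55, in that order and leaving out genotype in oil. With only the groups compared in the fit, the first 4 were 0 (3152 rows at an unadjusted p under 0.05 by limma), 240, 2531 and 27. The interaction gave 37 after quantile normalization, 6 with all 8 libraries above the lowest value, and 0 with a variance trend (2802 at an unadjusted p under 0.05 by limma). Leaving out each library gave 24 to 404, 176 to 469, 1707 to 4004, 337 to 1323 and 17 to 98.

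The median difference of the members became 0.073, -0.21 and 0.60 after quantile normalization for tamoxifen with Ezh1, tamoxifen without Ezh1 and genotype after tamoxifen. Without Egr3, an alternative chosen after seeing the data, it was 0.28 for tamoxifen without Ezh1. Leaving out each library gave medians of 0.21 to 0.36, -0.18 to 0.35, 0.77 to 1.03, 0.077 to 0.77 and -0.27 to 0.15, in the order of the counts above.

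Libraries with the same number did not deviate together, with correlations from -0.06 to 0.08 between groups, so they share only a number. The replicate block gave 23 and 364 called genes for tamoxifen with and without Ezh1, 1179 for genotype after tamoxifen and 5 for the interaction. Nab2, Dusp1, Ccnd1 and Ier3, and Errfi1 after tamoxifen, were not called under it. Depth limits the precision of Egr2, which read as 4 reads in both Ezh1-null oil libraries, and of Egr3, which read as 2 to 8 reads in 6 libraries.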
